A study of Homo sapiens with 10 samples.

Results

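The RAB genes encode the largest family of small GTPases in the RAS superfamily. Genes whose symbol is RAB followed by a number and at most one letter were taken, and 57 of the 19775 genes with a probe set annotated to a single symbol met this rule. Where a gene had several probe sets, the one brightest on average (mean log2 signal over the 10 arrays) was used. Of the 57 genes, 49 passed the filter on low signal and were tested, among 12342 genes tested in all. LoVo is an established human colon adenocarcinoma cell line. Its cells were grown in DMEM with 10% fetal bovine serum (C, 3 arrays), in DMEM without serum (SS, serum-starved cells, 3 arrays) or in DMEM without serum plus 10 μM ADMA (ADMA, 4 arrays), in each case for 96 h. ADMA, asymmetric dimethylarginine, is a methylated arginine that inhibits nitric oxide synthases, and every ADMA culture was also without serum. The labels call the arrays of a group biological replicates of this single line and do not say how the cultures were separated, so p-values measure only the spread between these arrays.

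A RAB protein is a molecular switch on a membrane. Guanine nucleotide exchange factors load it with GTP, GTPase-activating proteins return it to the GDP form, and in the GTP form it binds effectors such as motors, tethers and coiled-coil adaptors. The family as a whole covers the route from the endoplasmic reticulum (ER) through the Golgi to secretion, and from the plasma membrane through endosomes to lysosomes or back to the surface.

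The arrays had been scaled to 1 trimmed mean, 500.1 on every array, but the median signal was 60.7 to 73.1 in C, 87.5 to 90.7 in SS and 91.9 to 98.1 in ADMA. Centring each array on its median log2 signal shifted every difference by -0.389 in SS against C, by -0.116 in ADMA against SS and by -0.506 in ADMA against C. The signal of the ribosomal RNA control probe sets for 28S was 494.5 to 599.6 in C, 1564 to 2464 in SS and 991.2 to 1341 in ADMA. All 12 colon epithelial markers passed the filter, with a summed signal of 84568 to 86057 in C, 121684 to 140555 in SS and 154085 to 175273 in ADMA. They did not move together. By the criteria given below, 6 of the 12 were called higher and 3 lower in SS against C, with differences of -2.04 to 2.39. All genes tested stood at 30.3% and 27.3%. With arrays centred 4 markers were called higher and 5 lower, beside 16.3% and 42% of all genes. Of the markers of other cells with a probe set, 3 of 8 for fibroblasts, 1 of 6 for endothelium and 3 of 5 for leukocytes passed it. The leukocyte sum was 562.4 to 832.1 in C, 4108 to 4755 in SS and 1502 to 2201 in ADMA, and LYZ, also made by intestinal epithelium, held most of it, while PTPRC and CD14, defining markers of leukocytes, were under the background level on all arrays. The part of these array-wide shifts in the results on RAB genes was not tested. In such bulk RNA, fewer cells of one kind and less RNA per cell cannot be told apart.

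Among the RAB genes, RAB27B rose most and RAB27A fell most after 96 h without serum. A gene was called at a limma adjusted p under 0.01 with a fold of at least 1.2. In SS against C, 10 of the 49 RAB genes (20.4%) rose, against 30.3% of all genes tested, and 12 (24.5%) fell, against 27.3% (57.6% of all genes in either direction). Quantile normalization gave 12 higher and 13 lower, beside 27.3% and 28.6% of all genes. With arrays centred, 6 RAB genes (12.2%) were called higher and 24 (49%) lower, where all genes stood at 16.3% and 42%. The median difference was -0.08 over the RAB genes and 0.07 over all genes. The rises called under every scaling were those of RAB27B, RAB2B, RAB3B, RAB33B, RAB5B and RAB18, and all 12 falls were called under every scaling, led by RAB27A, RAB20 and RAB40B. The signals of SS and C did not overlap in 36 of the 49 RAB genes, beside 71.3% of all genes tested.

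ADMA added to serum-free medium changed fewer of these genes, led by a rise of RAB20 and a fall of RAB33B. In ADMA against SS, 6 RAB genes rose, against 15.7% of all genes, and 8 fell, against 13.8% (29.5% in either direction). Quantile normalization gave 7 higher and 9 lower, beside 15.2% and 14% of all genes. With arrays centred, 3 were called higher and 10 lower, beside 7.31% and 17% of all genes. The median difference was 0.04 over the RAB genes and 0.03 over all genes. The signals of ADMA and SS did not overlap in 25 of the 49, beside 46.1% of all genes. In ADMA against C, 11 rose and 9 fell, where all genes stood at 26.6% and 23.2% (49.8% in either direction). Quantile normalization gave 11 and 8, beside 23.2% and 24.7%, and with arrays centred 3 were called higher and 30 lower, beside 9.8% and 49.4%. Of the 11 rises those of RAB27B, RAB2B and RAB3B held with arrays centred, and those of RAB5A, RAB5B, RAB10, RAB18, RAB22A, RAB25, RAB31 and RAB37 did not. The signals of ADMA and C did not overlap in 30 RAB genes, beside 61.9% of all genes. The comparisons share arrays: each of C, SS and ADMA enters a pair of them, so their values stand side by side below and are not independent of each other. Without SS replicate 1, 2 or 3 or ADMA replicate 3 or 4 the falls in ADMA against SS numbered 5, and without ADMA replicate 1 those in ADMA against C numbered 5. Where a call was lost with 1 array left out, the range given covers each of the 10 arrays left out in turn.

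**Figure D1:**
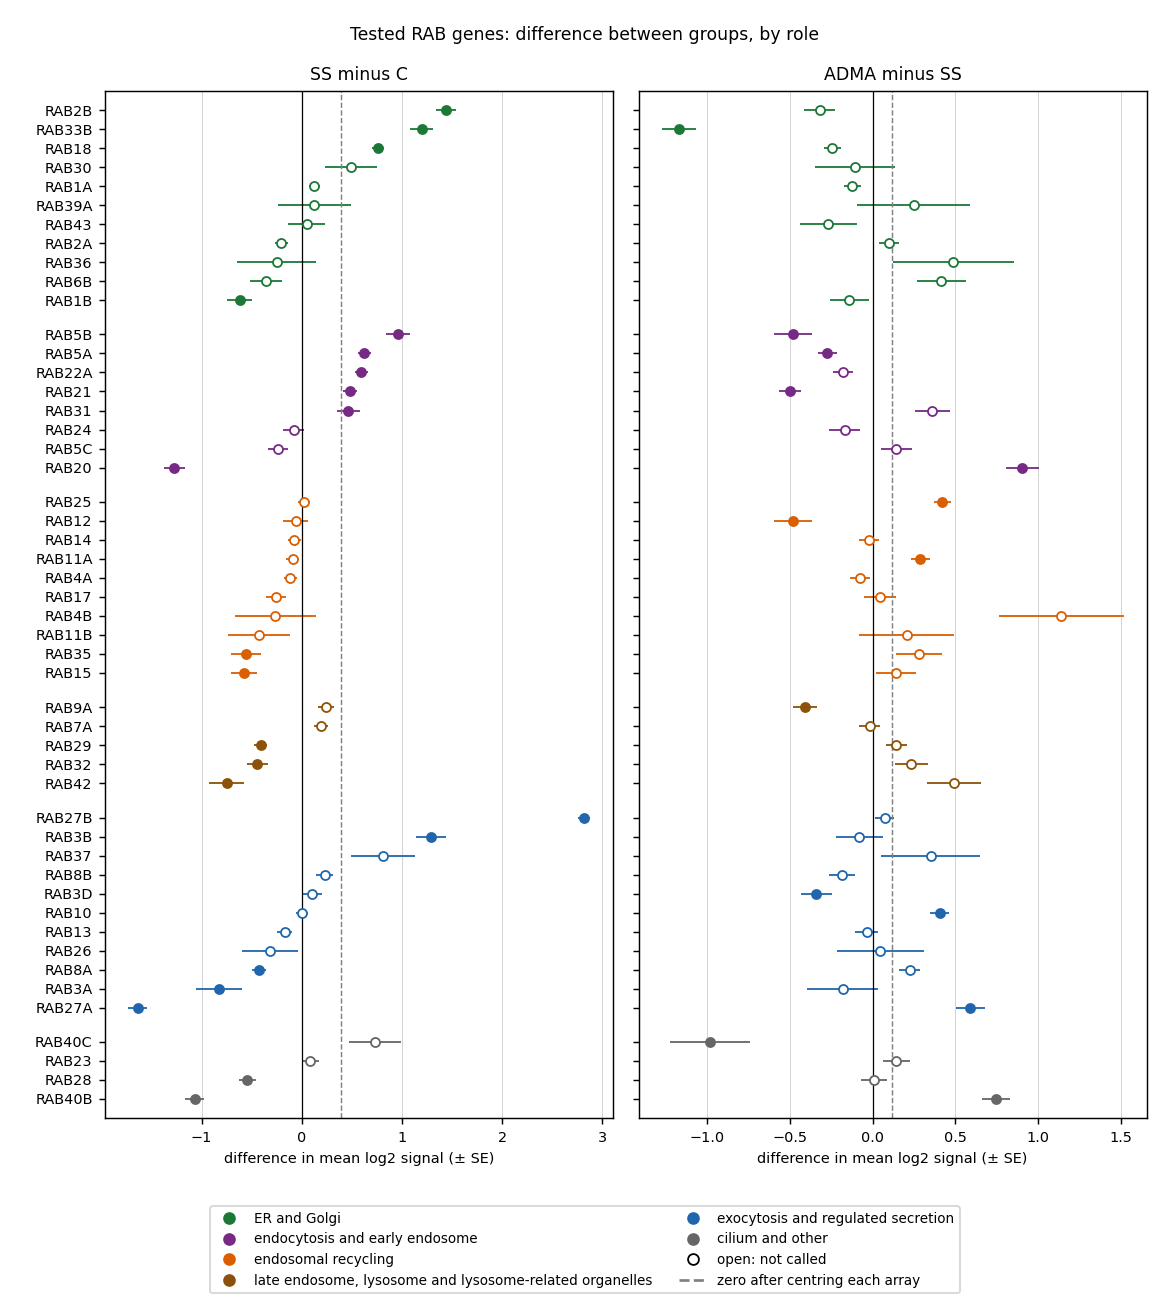
Difference in mean log2 signal of the 49 tested RAB genes, SS minus C (left) and ADMA minus SS (right), with the standard error of the fit as a bar. Genes are grouped by role (colour), filled points were called, and the dashed line marks where zero lies once arrays are centred. RAB27B at 2.81 and RAB27A at -1.64 hold the ends of the left panel.

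The widest opposite movement lay within a pair of paralogs of regulated secretion. RAB27A and RAB27B tether secretory granules, melanosomes and exosome-bearing endosomes at the plasma membrane. RAB27B gave log2 signals of 9.79, 9.74 and 9.60 on the C arrays, 12.54, 12.47 and 12.55 on the SS arrays and 12.59, 12.66, 12.55 and 12.57 on the ADMA arrays. RAB27A gave 10.56, 10.44 and 10.46 in C, 8.78, 8.93 and 8.84 in SS and 9.36, 9.45, 9.33 and 9.62 in ADMA. For RAB27B, SS and ADMA lay close together and far above C, whereas for RAB27A the groups were in the order SS, ADMA, C, and no 2 of them overlapped. RAB27B rose 7.03-fold in SS, a log2 difference of 2.81 ± 0.06 (SE, adjusted p = 2.19e-13), and differed by 0.07 ± 0.06 between ADMA and SS (adjusted p = 0.354). RAB27A fell 3.11-fold in SS, a log2 difference of -1.64 ± 0.10 (adjusted p = 1.35e-09), and rose by 0.59 ± 0.09 in ADMA against SS (adjusted p = 0.000106). Against C, RAB27A remained lower in ADMA, at -1.04 ± 0.09 (adjusted p = 1.29e-07), and RAB27B remained higher, at 2.89 ± 0.06 (adjusted p = 9.67e-14).

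The RAB27 pair was also read by other probe sets. All 5 probe sets of RAB27A above the filter were lower in SS than in C, by -1.64 to -0.48, and all were higher in ADMA than in SS, by 0.09 to 0.59. The 3 probe sets of RAB27B differed by 2.57 to 2.93 between SS and C. In ADMA against SS the brightest of them differed by 0.07 and the dimmer pair by -0.47 and -0.29, so the probe sets of RAB27B did not share a sign there.

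The sequences upstream of the start sites are shown because these paralogs were called in opposite directions and because RAB27B, RAB3B and RAB5B, called higher in SS, each held the letters TGANTCA. RefSeq windows of build GRCh38.p14 were found for 40 of the 49 tested genes, and the 250 bases before each start were searched on both strands for the E-box letters CACGTG, the AP-1 type letters TGANTCA, the GC box letters GGGCGG, the CCAAT box and the TATA box letters TATAAA. In the windows printed, no match to TGANTCA overlapped a match to another of them. TGANTCA was in 6.57% of all 35116 windows and in 5 of the 57 windows of tested RAB genes (8.77%). Of these, 3 were among the 12 windows of genes called higher in SS and 1, of RAB27A, among the 14 of genes called lower. RAB13, which was not called, also held it. CACGTG was in 6.34% of all windows and in 5 of the 57 (8.77%). It was in 3 of the 12 windows of genes called higher (RAB5A, RAB21 and RAB31) and in none of the 14 of genes called lower. RAB24 and RAB4A, not called, also held it. GGGCGG was in 46 of the 57 windows of tested RAB genes and in 42.6% of all windows. CCAAT was in 17 of the 57 and in 32% of all, and TATAAA in 2 of the 57 and in 10.7% of all. The match to TGANTCA stands in capitals, each sequence runs 5′ to 3′ along its gene, and which of the start sites LoVo cells use was not measured.
RAB27B (chr18:54828227-54828476, plus strand): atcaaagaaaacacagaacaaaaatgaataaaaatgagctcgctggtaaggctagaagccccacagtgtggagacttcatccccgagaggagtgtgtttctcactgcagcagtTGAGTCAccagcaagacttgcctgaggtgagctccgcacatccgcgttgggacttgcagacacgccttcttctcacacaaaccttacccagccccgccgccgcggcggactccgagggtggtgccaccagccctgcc
RAB3B (chr1:51990701-51990950, minus strand): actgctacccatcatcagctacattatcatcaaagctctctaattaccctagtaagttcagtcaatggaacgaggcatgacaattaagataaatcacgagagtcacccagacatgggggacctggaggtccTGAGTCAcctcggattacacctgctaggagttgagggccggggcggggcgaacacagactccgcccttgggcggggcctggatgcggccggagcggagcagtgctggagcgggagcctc
RAB5B (chr12:55973699-55973948, plus strand): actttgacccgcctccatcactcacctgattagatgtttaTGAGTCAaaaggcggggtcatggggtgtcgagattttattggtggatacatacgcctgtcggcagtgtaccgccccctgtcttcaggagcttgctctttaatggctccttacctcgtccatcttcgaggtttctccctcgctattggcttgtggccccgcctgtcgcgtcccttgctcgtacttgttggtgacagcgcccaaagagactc
RAB27A (chr15:55270400-55270649, minus strand): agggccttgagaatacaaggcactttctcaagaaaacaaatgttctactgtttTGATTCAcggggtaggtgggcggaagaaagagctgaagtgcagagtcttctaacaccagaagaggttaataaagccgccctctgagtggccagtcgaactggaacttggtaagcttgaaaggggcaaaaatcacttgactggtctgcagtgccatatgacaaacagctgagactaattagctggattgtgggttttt
These letters were looked at after the calls were known, and a match is a description of the window alone. RAB27A has 5 windows in the table and RAB27B has 2, and the match was in 1 window of each.

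**Figure D2:**
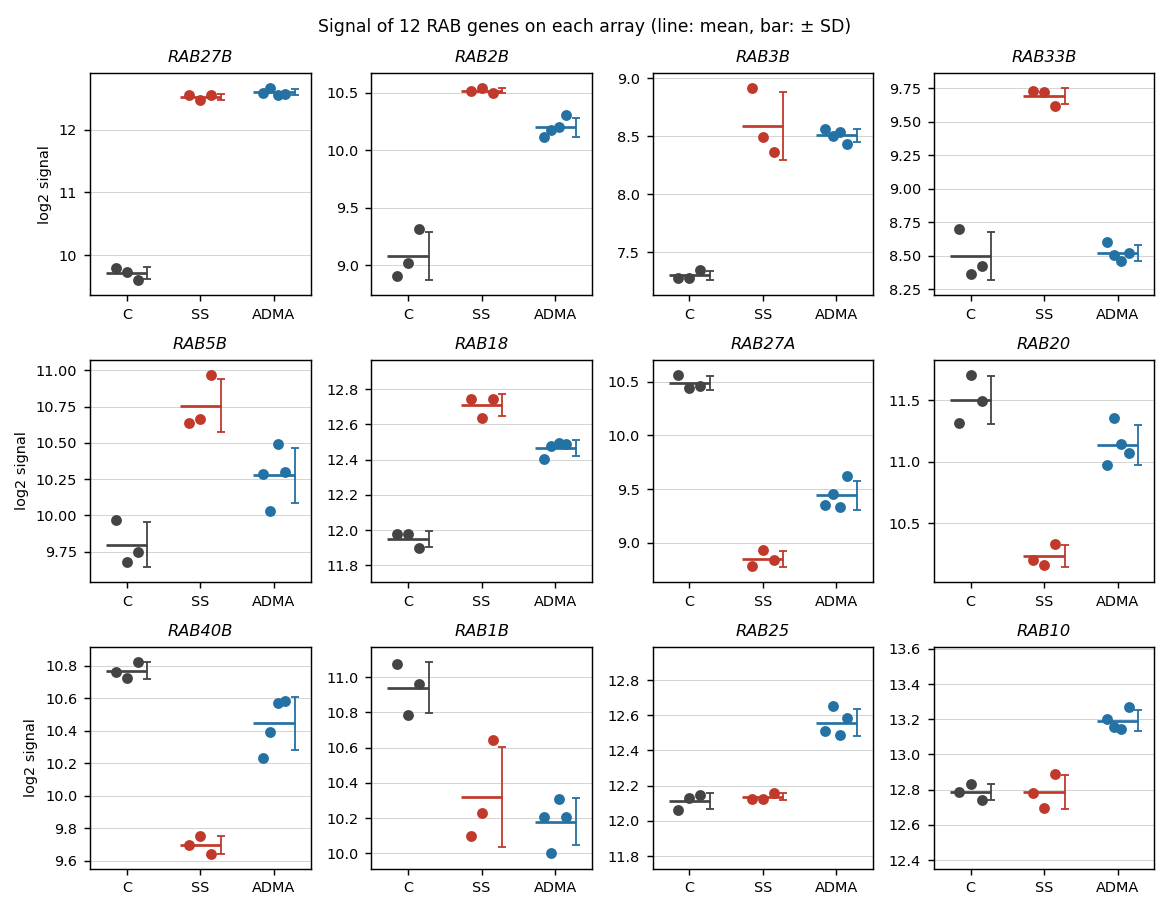
Log2 signal of 12 RAB genes on each array of C, SS and ADMA, with the mean as a line and the SD as a bar, on axes that do not start at 0. RAB27B sits near 12.5 in SS and ADMA and below 9.8 in C. On this scale RAB33B in ADMA returns to the range of C, and RAB25 and RAB10 in ADMA lie above both other groups.

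Among the ER and Golgi RABs, 3 of 11 tested genes (27.3%) rose in SS, close to the 30.3% of all genes, and 1 (9.09%) fell, beside 27.3%. With arrays centred, the same 3 were called higher and 3 lower, beside 16.3% and 42% of all genes. RAB2B, a Golgi paralog of RAB2A, gave 8.91, 9.02 and 9.31 in C, 10.52, 10.54 and 10.50 in SS and 10.11, 10.17, 10.20 and 10.30 in ADMA, with no overlap between groups. It rose by 1.44 ± 0.10 in SS (adjusted p = 7.59e-09), and its difference of -0.32 in ADMA against SS was not called (adjusted p = 0.0115). RAB33B, a Golgi RAB that binds the autophagy protein ATG16L1, gave 8.70, 8.36 and 8.43 in C, 9.73, 9.72 and 9.62 in SS and 8.60, 8.50, 8.46 and 8.52 in ADMA. Its SS arrays stood above all others, and ADMA lay inside the range of C. RAB33B rose by 1.19 ± 0.11 in SS (adjusted p = 2.08e-07) and fell by 1.17 in ADMA against SS (SE 0.10, adjusted p = 8.71e-07), the largest fall among the RAB genes in that comparison. Against C the ADMA difference of RAB33B was 0.03, which turned to -0.48 with arrays centred, where it was called lower (adjusted p = 0.00142).

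RAB18, which acts on the ER and on lipid droplets, gave 11.98, 11.98 and 11.90 in C, 12.74, 12.64 and 12.75 in SS and 12.40, 12.48, 12.49 and 12.49 in ADMA. It rose by 0.76 ± 0.06 in SS (adjusted p = 1.53e-08), and its ADMA arrays lay between the other groups without overlap. In ADMA against SS its difference of -0.24 fell short of the fold asked for, though adjusted p was 0.00166, and it was called lower under quantile normalization and with arrays centred, at -0.29 and -0.36. RAB1B, which acts in transport from the ER to the Golgi, was the member that fell. Its signals were 11.07, 10.79 and 10.96 in C, 10.10, 10.23 and 10.64 in SS and 10.20, 10.00, 10.31 and 10.21 in ADMA, a difference of -0.62 ± 0.13 in SS against C (adjusted p = 0.000495) and of -0.76 ± 0.12 in ADMA against C (adjusted p = 5.21e-05). Its paralog RAB1A differed by 0.13 in SS against C (adjusted p = 0.0645) and was called under quantile normalization alone of the scalings, at 0.29, as was its difference of -0.29 in ADMA against SS. RAB30, RAB36 and RAB39A were not called in any comparison under any of the 3 scalings. For RAB30 the other probe set above the filter differed by 0.85 in SS, and those under it by 0.74 to 4.75. RAB6B, RAB43 and RAB2A were not called on the deposited scale, but RAB6B was called lower in SS under quantile normalization (-0.57) and with arrays centred (-0.75). Its other probe sets, nearly as bright, differed by 0.40 and 0.15 on the deposited scale. RAB43 was called lower in ADMA against C under both (-0.63 and -0.73), and RAB2A lower in SS with arrays centred (-0.60).

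Of the 8 tested RABs of endocytosis and the early endosome, 5 rose in SS and 1 fell, beside 30.3% and 27.3% of all genes. With arrays centred, of the rises that of RAB5B alone was called, and 3 genes, RAB20, RAB24 and RAB5C, were called lower. All genes then stood at 16.3% higher and 42% lower. RAB5B, one of the RAB5 isoforms that drive fusion of early endosomes, gave 9.97, 9.68 and 9.75 in C, 10.64, 10.66 and 10.97 in SS and 10.29, 10.03, 10.49 and 10.30 in ADMA, with no overlap between groups. It rose by 0.96 ± 0.12 in SS (adjusted p = 5.1e-06) and fell by 0.48 in ADMA against SS (SE 0.11, adjusted p = 0.00323). Without SS replicate 3 that fall was -0.37 and was not called. Against C the ADMA difference of RAB5B was 0.48 (adjusted p = 0.00188), which was not called without C replicate 2 and turned to -0.03 with arrays centred.

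RAB5A gave 12.41, 12.38 and 12.58 in C, 13.10, 13.10 and 13.04 in SS and 12.85, 12.86, 12.72 and 12.79 in ADMA. Its 3 groups did not overlap. RAB5A rose by 0.62 ± 0.06 in SS (adjusted p = 5.06e-07), a call lost at 0.23 with arrays centred, and fell by 0.27 in ADMA against SS (adjusted p = 0.00185), a call lost without SS replicate 1, SS replicate 2 or ADMA replicate 3, with a range of -0.29 to -0.24. The remaining isoform, RAB5C, differed by -0.24 in SS against C and was not called (adjusted p = 0.0461), but was called lower with arrays centred, at -0.63. RAB22A, which acts between early and recycling endosomes, gave 10.88, 10.86 and 10.90 in C, 11.43, 11.52 and 11.47 in SS and 11.25, 11.42, 11.28 and 11.21 in ADMA. It rose by 0.59 ± 0.07 in SS (adjusted p = 1.17e-06), which came to 0.20 and lost its call with arrays centred.

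RAB21, which binds integrins during their endocytosis, gave 11.66, 11.66 and 11.82 in C, 12.13, 12.33 and 12.12 in SS and 11.74, 11.72, 11.65 and 11.64 in ADMA. SS stood apart, and C and ADMA overlapped. It rose by 0.48 ± 0.07 in SS (adjusted p = 2.4e-05), which came to 0.09 and lost its call with arrays centred, and fell by 0.50 in ADMA against SS (SE 0.07, adjusted p = 3.1e-05). RAB31, which acts between the trans-Golgi network and endosomes, differed by 0.47 in SS (adjusted p = 0.00201), but its call was lost with arrays centred (0.08), under quantile normalization (0.34) and without C replicate 1 or SS replicate 2 (down to 0.36). In ADMA against C it rose by 0.82 ± 0.11 (adjusted p = 8.22e-06), and the call was lost with arrays centred, at 0.32. RAB24, linked to autophagy, differed by -0.08 in SS and was called lower with arrays centred alone, at -0.47.

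RAB20, a RAB of endosomes and phagosomes, was the member of this group that fell on the deposited scale. It gave 11.32, 11.70 and 11.49 in C, 10.20, 10.16 and 10.33 in SS and 10.97, 11.36, 11.15 and 11.07 in ADMA. The SS arrays lay below all others, and 1 of the ADMA arrays reached into the range of C. RAB20 fell 2.41-fold in SS, a log2 difference of -1.27 ± 0.11 (adjusted p = 6.32e-08), and rose by 0.90 ± 0.10 in ADMA against SS (adjusted p = 6.3e-06), the largest called rise of a RAB gene in that comparison. The remaining difference of -0.37 between ADMA and C (adjusted p = 0.00493) was not called under quantile normalization, at -0.27, or without C replicate 2, C replicate 3, ADMA replicate 1, ADMA replicate 3 or ADMA replicate 4, with a range of -0.46 to -0.27. Averaging its probe sets brought the SS difference to -0.19 and the ADMA difference to 0.15, neither called. Its other probe set, which lay under the filter, differed by 0.89 and -0.60.

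Of the 10 tested RABs of endosomal recycling, 2 (20%) fell in SS, beside 27.3% of all genes, and the other 8 were not called. With arrays centred, 8 of the 10 were called lower, beside 42% of all genes, all but RAB4B and RAB11B. RAB15, of early and recycling endosomes, gave 10.23, 10.35 and 10.32 in C, 9.93, 9.76 and 9.48 in SS and 9.79, 9.92, 9.61 and 10.13 in ADMA, a difference of -0.58 ± 0.13 in SS against C (adjusted p = 0.001). RAB35, which returns cargo rapidly to the plasma membrane, gave 10.72, 10.81 and 10.63 in C, 10.03, 9.89 and 10.57 in SS and 10.37, 10.67, 10.24 and 10.49 in ADMA. It fell by 0.56 in SS (SE 0.15, adjusted p = 0.00372), and the call was lost without C replicate 1, C replicate 2, SS replicate 1 or SS replicate 2, with adjusted p up to 0.0242 and a difference of -0.76 to -0.42 in range. For both genes all C arrays stood above all SS arrays. In ADMA against C, RAB15 was lower by -0.44 (adjusted p = 0.00524), a call lost without any 1 of the 3 C arrays, ADMA replicate 1 or ADMA replicate 3, with values from -0.53 to -0.36.

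ADMA separated from SS in RAB25 and its relative RAB11A, both RABs of the recycling endosome, RAB25 being the epithelial form. RAB25 gave 12.06, 12.13 and 12.15 in C, 12.13, 12.13 and 12.16 in SS and 12.51, 12.65, 12.49 and 12.59 in ADMA, so that all ADMA arrays stood above all others. It differed by 0.02 ± 0.06 in SS against C (adjusted p = 0.751), rose by 0.42 ± 0.05 in ADMA against SS (adjusted p = 2.58e-05) and by 0.44 ± 0.05 in ADMA against C (adjusted p = 4.99e-06). With arrays centred these came to -0.37, 0.31 and -0.06, where the first was called lower (adjusted p = 0.00213) and neither rise was called. The study reported RAB25 as raised by serum starvation in its PCR arrays, which used separate cultures. No rise of RAB25 in SS against C was called here under any of the 3 scalings. The reason for this discrepancy was not tested. RAB11A gave 13.26, 13.31 and 13.43 in C, 13.22, 13.19 and 13.33 in SS and 13.49, 13.50, 13.50 and 13.64 in ADMA. It rose by 0.29 ± 0.06 in ADMA against SS (adjusted p = 0.00124), a call lost with arrays centred (0.17), under quantile normalization (0.16) and without SS replicate 2 or ADMA replicate 4 (0.25 at the lowest). In ADMA against C its difference of 0.20 was not called and turned to -0.31 with arrays centred.

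RAB12, which directs the transferrin receptor from recycling endosomes to lysosomes, gave 11.16, 10.75 and 11.00 in C, 10.90, 10.93 and 10.88 in SS and 10.65, 10.59, 10.26 and 10.20 in ADMA. The ADMA arrays stood below all others. It fell by 0.48 in ADMA against SS (SE 0.11, adjusted p = 0.00339), a call lost without SS replicate 1, SS replicate 2, ADMA replicate 3 or ADMA replicate 4, with values from -0.56 to -0.40, and by 0.54 in ADMA against C (adjusted p = 0.000751). One dimmer probe set of RAB12 differed by 2.64 in SS against C where the brightest differed by -0.06, so that the mean of its probe sets was called higher in ADMA against C, at 0.56. RAB4B and RAB11B were not called under any of the 3 scalings. RAB4A, RAB14 and RAB17 were called, of the 3 scalings, with arrays centred alone, as lower in SS by -0.50, -0.47 and -0.65. A RAB4A probe set nearly as bright as the one used differed by -0.67 in ADMA against SS and by -0.64 in ADMA against C. The dimmest of RAB4A differed by -0.10 and 0.24.

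Of the 5 tested RABs of late endosomes and lysosomes, 3 fell in SS and the others were not called, beside falls in 27.3% of all genes. With arrays centred the same 3 were called lower, beside 42% of all genes. RAB42 gave 8.30, 8.15 and 8.09 in C, 7.47, 7.40 and 7.42 in SS and between 7.66 and 8.27 in ADMA, a difference of -0.75 ± 0.17 in SS (adjusted p = 0.00144). RAB32, a RAB of lysosome-related organelles, fell by 0.44 in SS (adjusted p = 0.0018), a call lost without C replicate 1, at -0.33. Its dimmer probe set differed by -0.13, and the mean of its probe sets, at -0.29, was not called. RAB29, which recruits the kinase LRRK2 to membranes, fell by 0.41 in SS (adjusted p = 6.46e-05) and by 0.27 in ADMA against C (adjusted p = 0.00169), the latter call lost under quantile normalization (-0.19) and without C replicate 2, ADMA replicate 1 or ADMA replicate 2 (-0.24 at the smallest). RAB7A, the main RAB of late endosomes and lysosomes, differed by 0.19 in SS against C and was not called (adjusted p = 0.0219), while quantile normalization called it higher, at 0.29. In ADMA against C it was called higher under quantile normalization (0.29) and lower with arrays centred (-0.33). RAB9A, which acts in return from late endosomes to the trans-Golgi network, gave 10.83, 10.93 and 10.83 in C, 11.07, 11.08 and 11.17 in SS and 10.57, 10.62, 10.83 and 10.77 in ADMA. SS stood above both other groups, and RAB9A fell by 0.41 in ADMA against SS (SE 0.07, adjusted p = 0.000382), while its difference of 0.24 in SS against C was not called (adjusted p = 0.0122).

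Of the 11 tested RABs of exocytosis, RAB27A and RAB27B included, 2 (18.2%) rose and 3 (27.3%) fell in SS, beside 30.3% and 27.3% of all genes. With arrays centred these were 2 and 5, beside 16.3% and 42% of all genes. RAB3B, of the RAB3 group on secretory vesicles, gave 7.27, 7.28 and 7.35 in C, 8.91, 8.49 and 8.36 in SS and 8.57, 8.50, 8.53 and 8.43 in ADMA, and rose by 1.29 ± 0.15 in SS (adjusted p = 2.37e-06) and by 1.21 ± 0.14 in ADMA against C (adjusted p = 3.22e-06). SS and ADMA overlapped, and both stood above C. RAB3A, the synaptic vesicle member of that group, gave 7.40, 7.42 and 7.66 in C, 6.68, 6.68 and 6.65 in SS and 6.34, 6.26, 6.70 and 6.63 in ADMA. It fell by 0.83 in SS (SE 0.23, adjusted p = 0.00499), a call lost without any 1 of the 6 C and SS arrays, with values from -0.88 to -0.75 and adjusted p up to 0.0253, and by 1.01 in ADMA against C (SE 0.21, adjusted p = 0.000818), which held without each array. RAB3D fell by 0.34 in ADMA against SS (adjusted p = 0.0082) with signals of 10.42, 10.17 and 10.24 in SS and 9.80, 9.95, 9.99 and 10.01 in ADMA. That call was lost under quantile normalization (-0.33) and without 8 of the 10 arrays, all but C replicate 1 and C replicate 3, with values from -0.39 to -0.27, and its other probe set differed by 0.32.

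RAB10, which brings GLUT4 vesicles and other cargo to the plasma membrane, gave 12.79, 12.83 and 12.74 in C, 12.78, 12.69 and 12.89 in SS and 13.20, 13.15, 13.15 and 13.27 in ADMA. C and SS overlapped, and every ADMA array stood above them. It rose by 0.41 ± 0.06 in ADMA against SS (adjusted p = 5.63e-05) and by 0.41 ± 0.06 against C (adjusted p = 2.01e-05). With arrays centred these came to 0.29 and -0.10, neither called, and its other probe set differed by 0.06 between ADMA and SS. RAB37, of secretory granules, gave 5.68, 5.42 and 6.07 in C, 6.08, 6.58 and 6.92 in SS and 6.61, 7.07, 6.69 and 7.14 in ADMA. It rose by 1.16 ± 0.30 in ADMA against C (adjusted p = 0.0035). Its mean in C, 5.72, was under the filter, which it passed through its other groups, and C replicate 1 was under the background level of its array, so the size of this difference is uncertain. The call was lost with arrays centred, under quantile normalization (0.66) and without C replicate 1, C replicate 2, ADMA replicate 2 or ADMA replicate 4 (1.01 at the lowest). RAB8A, which acts in transport to the plasma membrane and the cilium, fell by 0.42 in SS (adjusted p = 7.64e-05), and its paralog RAB8B differed by 0.23 (adjusted p = 0.0252, not called). RAB26 was not called under any of the 3 scalings, and RAB13 was called with arrays centred alone, as lower in SS by -0.56.

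Of the 4 remaining RABs, RAB40B and RAB28 fell in SS, beside falls in 27.3% of all genes. RAB40B and RAB40C carry a SOCS box and serve as substrate receptors of cullin ubiquitin ligases. RAB40B gave 10.76, 10.72 and 10.82 in C, 9.70, 9.76 and 9.64 in SS and 10.23, 10.39, 10.57 and 10.58 in ADMA, with no overlap between groups. It fell 2.10-fold in SS, a log2 difference of -1.07 ± 0.09 (adjusted p = 7.95e-08), and rose by 0.75 ± 0.09 in ADMA against SS (adjusted p = 9.3e-06). Its difference of -0.32 in ADMA against C (adjusted p = 0.00414) lost its call under quantile normalization (-0.28) and without C replicate 1, C replicate 3, ADMA replicate 1 or ADMA replicate 2, with values from -0.37 to -0.25. The dimmest probe set of RAB40B differed by 0.08 in SS against C.

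RAB40C gave 9.51, 10.39 and 10.32 in C, 10.62, 10.93 and 10.88 in SS and 9.40, 10.44, 10.06 and 9.40 in ADMA. Its arrays spread widely within C and within ADMA, though SS stood above both. It fell by 0.98 in ADMA against SS (SE 0.24, adjusted p = 0.00452), a call lost without SS replicate 2, SS replicate 3, ADMA replicate 1 or ADMA replicate 4, with values from -1.19 to -0.84, and its other probe sets differed by -0.13 each. RAB28, found at the cilium, fell by 0.54 in SS and by 0.54 in ADMA against C (adjusted p = 3.77e-05 and 2.83e-05). RAB23, a regulator of Hedgehog signalling at the cilium, was not called under any of the 3 scalings.

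Ratios between related genes within an array are not moved by a factor applied to the whole array, such as centring, but quantile normalization moves them. The log2 ratio of RAB27A over RAB27B shifted by -4.45 from C to SS, by 0.52 from SS to ADMA and by -3.93 from C to ADMA, with no overlap between any groups. RAB40B over RAB40C shifted by -1.80 from C to SS and by 1.73 from SS to ADMA, without overlap, and C and ADMA overlapped at a shift of -0.08. This ratio rests on the brightest probe set of each gene. That of RAB40C differed by 0.73 in SS against C, where its others differed by -0.58 and 0.25, and the dimmest of RAB40B differed by 0.08. RAB5A over RAB5C shifted by 0.86 and then by -0.42, and RAB8A over RAB8B by -0.65 and then by 0.41, each without overlap. RAB1A over RAB1B and RAB3B over RAB3D shifted by 0.74 and 1.18 from C to SS without overlap, and SS and ADMA overlapped in both. RAB11A over RAB25 shifted by -0.11 from C to SS and by -0.13 from SS to ADMA, again without overlap. C and SS overlapped in RAB4A over RAB4B, RAB7A over RAB9A and RAB22A over RAB31, at shifts of 0.15, -0.05 and 0.13. From SS to ADMA these ratios shifted by -1.22, 0.39 and -0.54, without overlap. Under quantile normalization the shift from C to SS was -4.50 for RAB27A over RAB27B, -1.78 for RAB40B over RAB40C, 0.88 for RAB3B over RAB3D and -0.04 for RAB11A over RAB25. A shift shows that the members of a pair changed unequally, and not which of them changed.

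**Figure D3:**
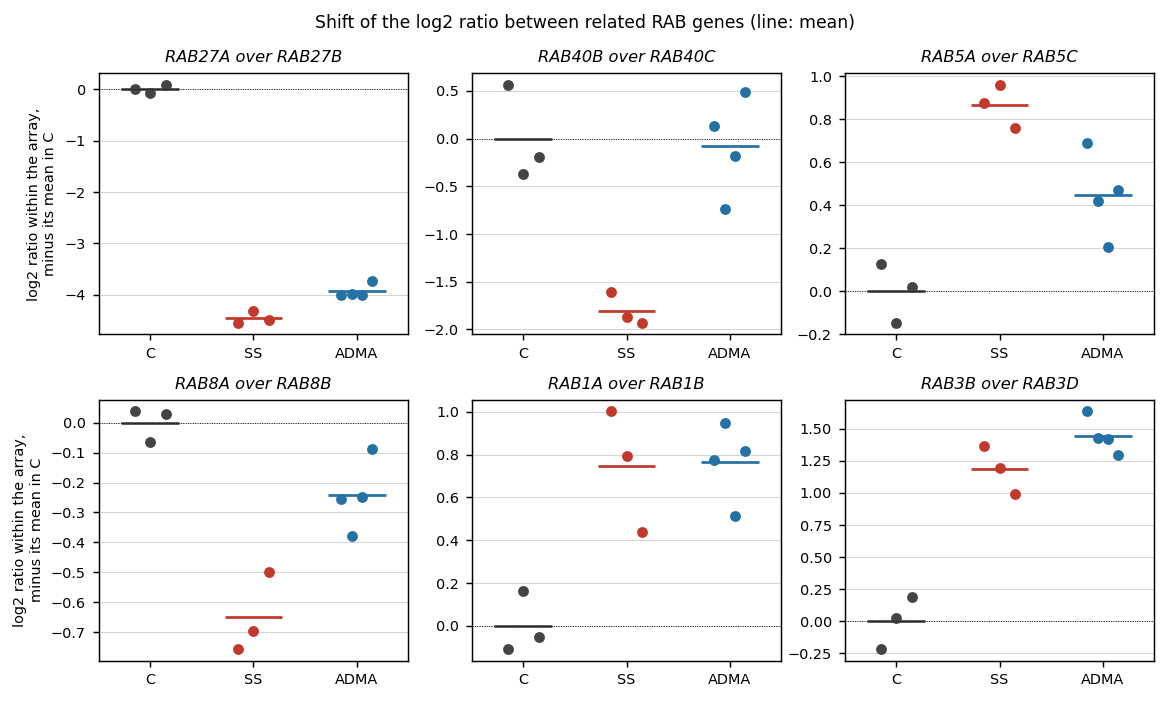
Log2 ratio of related RAB genes within each array, from which the mean ratio in C was subtracted, for C, SS and ADMA arrays, with the group mean as a line. The RAB27A over RAB27B ratio drops by 4.45 on the log2 scale in SS and by 3.93 in ADMA, while the RAB40B over RAB40C ratio in ADMA overlaps C. Each ratio uses the brightest probe set of a gene, and the probe sets of RAB40C did not share a sign in SS against C.

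How far a gene's probe sets concurred was counted for the 30 RAB genes with 2 or more above the filter. In 19 of the 30 all of them shared a sign in SS against C, and in 19 they did in ADMA against SS. RAB18 read 0.60 to 2.09 over 4 probe sets, RAB3B 0.30 to 1.29 over 3 and RAB35 -1.35 to -0.56 over 3 in SS against C. RAB11A, whose brightest probe set differed by -0.09, differed by -0.86 and -0.63 on its others, and their mean was called lower in SS, at -0.53 (adjusted p = 1.26e-05). RAB7A spanned -0.33 to 1.15 over 5 probe sets. Several probe sets of a gene can read different ends or transcript forms, and which of them did so here was not tested.

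**Figure D4:**
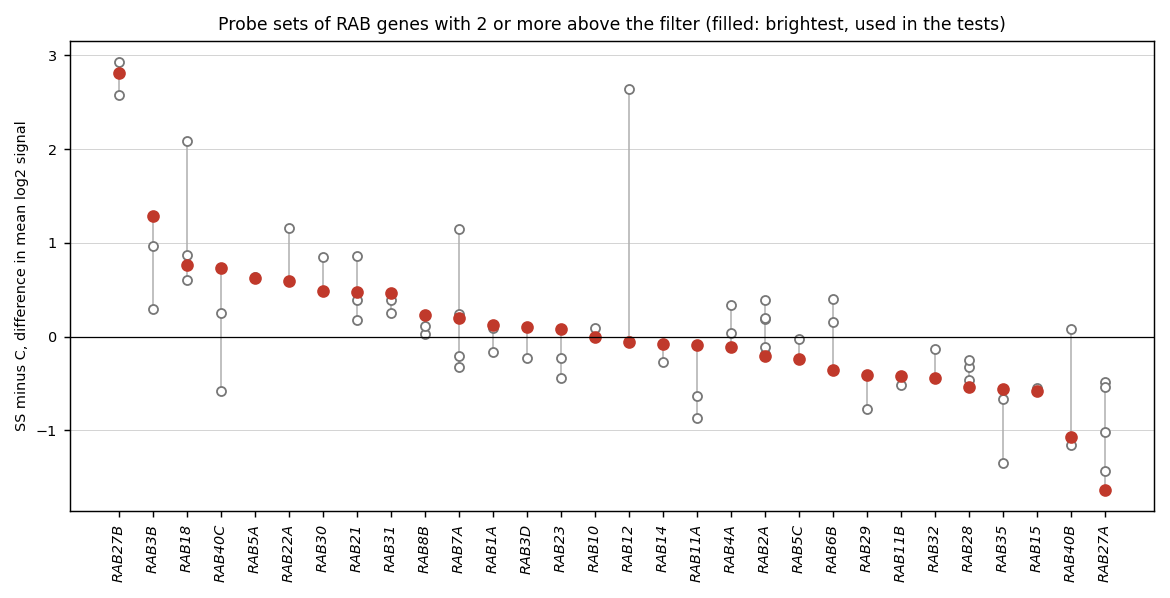
Difference in mean log2 signal, SS minus C, of each probe set above the filter for the 30 RAB genes with 2 or more, ordered by the probe set used in the tests (filled). All probe sets of RAB27B lie at 2.57 or above and all of RAB27A at -0.48 or below, while those of RAB12 run from -0.06 to 2.64.

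The genes that act on RAB proteins were described by lists of regulators and effectors. Of the effectors, 42 of 66 tested genes (63.6%) were higher in SS and 3 (4.55%) lower, beside 30.3% and 27.3% of all genes, with a median difference of 0.56 beside 0.07 for all genes. With arrays centred these were 24 higher (36.4%) and 10 lower (15.2%), beside 16.3% and 42% of all genes, and the median was 0.17 beside -0.32. In ADMA against SS, 2 effectors (3.03%) rose and 21 (31.8%) fell, beside 15.7% and 13.8% of all genes, with a median of -0.21 beside 0.03. GOLGB1, the Golgi tether giantin, rose by 2.20 ± 0.08 in SS (adjusted p = 1.13e-11) and fell by 0.70 in ADMA against SS (adjusted p = 4.52e-06). RUFY2, a RUN and FYVE domain protein, rose by 2.09 ± 0.18 in SS (adjusted p = 6.96e-08). KIF20A, a kinesin named for binding RAB6 that also acts in cytokinesis, fell by 2.72 in SS (adjusted p = 1.28e-10) and rose by 1.34 ± 0.12 in ADMA against SS (adjusted p = 7.79e-07). MICALL1, of tubular recycling endosomes, rose by 0.78 in SS and fell by 0.94 in ADMA against SS (adjusted p = 2.14e-07).

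The effectors that bind RAB27 were taken out of this list after its values were seen, because RAB27B led the family. Of 11 such genes, 8 were tested, and 6 rose in SS, by 0.72 to 1.95, 5 of them also with arrays centred, where the whole effector list stood at 63.6% and 36.4% and all genes at 30.3% and 16.3%. A count over genes picked in this way is a description. MLPH, the melanophilin that links RAB27 to myosin, rose by 1.95 ± 0.06, and the synaptotagmin-like SYTL5, SYTL1, SYTL4 and SYTL2 rose by 1.87, 1.57, 1.43 and 1.35. RPH3AL rose by 0.72, a call lost with arrays centred and under quantile normalization. RPH3A at 0.38 and EXPH5 at 0.02 were not called, and MYRIP, UNC13D and SYTL3 were under the filter. In ADMA against SS, MLPH fell by 0.51 and SYTL1 by 0.87 (adjusted p = 7.78e-06 and 0.000604), and no other was called.

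Of 51 exchange factors, 21 (41.2%) rose and 9 (17.6%) fell in SS, beside 30.3% and 27.3% of all genes, with a median of 0.30, but with arrays centred 10 were called higher and 14 lower, beside 16.3% and 42%. In ADMA against SS 3 (5.88%) rose and 9 (17.6%) fell, beside 15.7% and 13.8% of all genes, with a median of -0.08. DENND1A, an exchange factor for RAB35, fell by 1.88 in SS (adjusted p = 1.02e-10) and rose by 0.89 ± 0.08 in ADMA against SS (adjusted p = 8.74e-07). ALS2CL, a relative of the RAB5 exchange factor alsin, rose by 1.83 ± 0.12 in SS, and DENND2C rose by 1.68 ± 0.27 in SS and fell by 0.95 in ADMA against SS. TRAPPC6A, a subunit of the TRAPP exchange complexes, rose by 1.09 ± 0.12 in ADMA against SS (adjusted p = 7.46e-06) and differed by 0.04 in SS against C. Of 38 GTPase-activating proteins, 17 (44.7%) rose and 6 (15.8%) fell in SS, beside 30.3% and 27.3% of all genes, with a median of 0.37. With arrays centred these were 10 (26.3%) and 9 (23.7%), beside 16.3% and 42%. In ADMA against SS 3 of them (7.89%) rose and 8 (21.1%) fell, beside 15.7% and 13.8% of all genes, with a median of -0.13. The rises in SS were led by TBCK (1.76), RABGAP1L (1.69) and TBC1D5 (1.49), the last of which acts on RAB7. TBC1D7, also a subunit of the TSC complex, fell by 1.16 in SS and rose by 0.75 in ADMA against SS. TBC1D25 and USP6NL, the latter acting on RAB5, fell by 0.73 and 0.67 in ADMA against SS.

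Genes for prenylation and membrane recycling of RAB proteins mostly were not called on the deposited scale. Of 17 tested, 4 (23.5%) rose and 3 (17.6%) fell in SS, beside 30.3% and 27.3% of all genes, with a median of 0.08. In ADMA against SS 3 (17.6%) fell, beside 13.8% of all genes, and 14 were not called. CHML, a RAB escort protein, fell by 0.67 in SS (adjusted p = 4.09e-06). RABGGTB, the catalytic subunit of the geranylgeranyl transferase, differed by 0.08 in SS, called higher under quantile normalization and lower with arrays centred, and fell by 0.33 in ADMA against SS (adjusted p = 0.00155). PRAF2, a membrane protein, gave 3.01, 5.15 and 5.81 in C and 8.28 to 8.49 in SS. It was at or under the background level on C replicates 1 and 2. All its C signals were under the filter, which it passed through its other groups. PRAF2 is counted among the 4 rises, with a size that cannot be set. YIPF4 rose by 0.97 in SS, and YIPF4 and YIPF5 fell by 0.86 and 0.48 in ADMA against SS. With arrays centred, 2 of the 17 (11.8%) were called higher and 9 (52.9%) lower in SS, beside 16.3% and 42% of all genes.

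**Figure D5:**
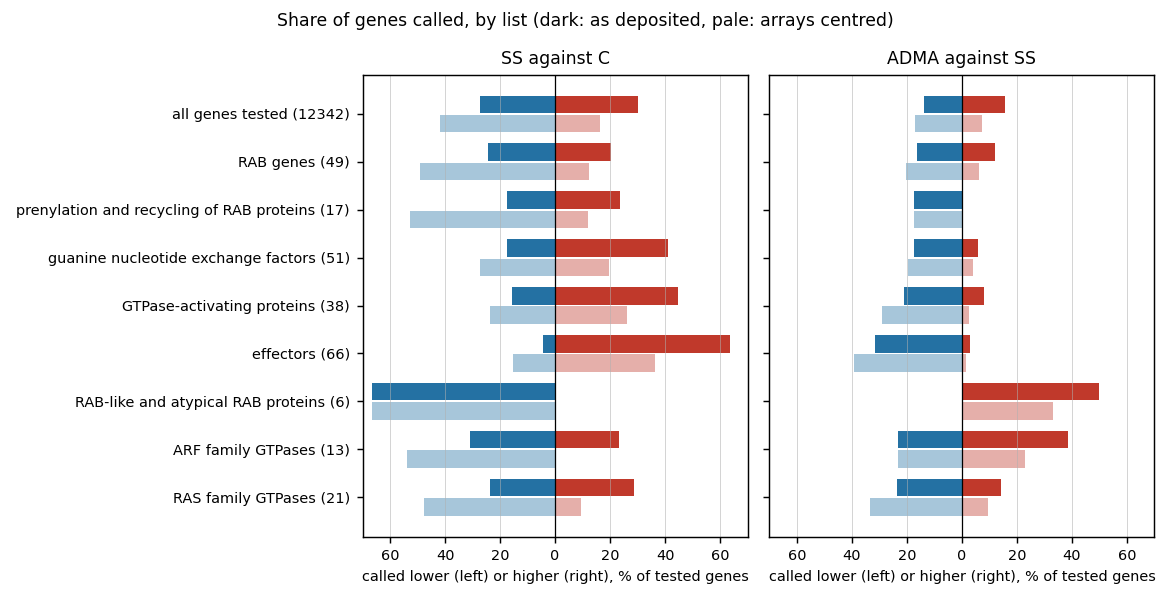
Percent of tested genes called higher (right, red) or lower (left, blue) in SS against C and in ADMA against SS, for all genes, RAB genes, the lists of genes acting on RAB proteins and the related GTPase families, with the number tested in brackets. Dark bars use the deposited scaling and pale bars arrays centred on their medians. Effectors reach 63.6% higher in SS, 36.4% with arrays centred, beside 30.3% and 16.3% of all genes.

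Other small GTPases give the frame for these counts. Of 6 tested RAB-like genes, 4 fell in SS, with and without centring, beside 42% and 27.3% of all genes. In ADMA against SS 3 of them rose, beside 15.7% of all genes. RABL3 fell by 1.73 in SS and rose by 0.82 in ADMA against SS. IFT22, a RAB-like subunit of intraflagellar transport, fell by 0.83 and rose by 0.56, and RABL6 fell by 1.24 and rose by 0.30, the latter not called with arrays centred. In SS against C, 3 of 13 ARF genes (23.1%) rose and 4 (30.8%) fell, and 6 of 21 RAS genes (28.6%) rose and 5 (23.8%) fell. These shares lay near the 30.3% and 27.3% of all genes. In ADMA against SS the counts were 5 (38.5%) and 3 (23.1%) for ARF and 3 (14.3%) and 5 (23.8%) for RAS, beside 15.7% and 13.8% of all genes. With arrays centred, the falls in SS against C were 7 ARF genes (53.8%) and 10 RAS genes (47.6%), beside 42% of all genes. No test was run between these lists and the RAB genes.

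The 8 untested RAB genes were RAB33A, RAB38, RAB39B, RAB3C, RAB40A, RAB6A, RAB7B and RAB9B. The highest of them had a mean log2 signal of 6.01 over the 10 arrays and the lowest tested member 6.29, on either side of the filter at 6.25. RAB38, RAB39B and RAB9B were under the background level on all 10 arrays, with group means of 1.37 to 3.95. RAB6A, a major Golgi RAB, was left on 1 dim probe set because its brighter probe sets are annotated to RAB6D as well.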

How the data were processed

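RNA of 10 LoVo cultures had been hybridised to Affymetrix HG-U133 Plus 2.0 arrays, and the authors calculated MAS 5.0 signal intensities, which were deposited as a linear table of 54675 probe sets. Intensities were taken to log2 here with no pseudocount and no further normalization. The platform annotation named 1 symbol for 41091 probe sets, several for 1801 and none for 11721, beside 62 controls. The brightest probe set stood for each gene, and genes were tested if its mean reached the median of all probe sets (log2 6.253). One limma model (version 3.58.1, R 4.3.3, intensity trend) covered the 3 groups, with Benjamini-Hochberg adjustment over all 12342 genes. A call required adjusted p to be below 0.01 with a change of 1.2-fold or more, thresholds the study's methods give for SAM, a permutation method that was not run. The fit was tested on simulated data. The number of arrays, 3 or 4 a group, limits the precision.

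The background level of an array was the 95th percentile of its 27 Bacillus control probe sets. Genes given in full were the 8 largest called rises and falls in SS against C and in ADMA against SS, and RAB25, which the study measured by PCR. Paralogs called in opposite directions and genes called in ADMA against C and not in SS against C were also given in full. From each list of genes acting on RAB proteins and from the RAB-like list, the 3 largest called changes per comparison were named. For the ARF and RAS lists only counts are given. Members and lists were chosen with earlier results of these data known. Promoter windows (GRCh38.p14) came from RefSeq. The alternatives were quantile normalization, arrays centred on their medians, other filters on low signal, no intensity trend, array weights, the 2 groups alone, a pseudocount of 16, signals floored at background, other choices of probe set, an adjusted p under 0.05, the replicate block and each array left out. The probe filter of the study and its metabolite data were not used here. Of its PCR arrays, only the direction it reported for RAB25 is cited. One further list of genes is not reported here.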

Additional observations from a re-analysis of the deposited data

Results flagged for a closer look

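Within the 4 ADMA arrays, 2 of 49 RAB genes had 1 array far from the others, where chance gives about 1 in 20 such groups. For RAB11A, ADMA replicate 4 read 13.64 on the log2 scale and the other 3 read 13.49 to 13.50, a gap of 0.887 of the group's range. The call of RAB11A in ADMA against SS was lost without that array. For RAB18, ADMA replicate 1 read 12.40 and the others 12.48 to 12.49, a gap of 0.846 of the range, and its calls held without that array.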

How the results depend on the processing

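With arrays centred on their medians, counts of RAB genes went from 10 to 6 higher and 12 to 24 lower in SS against C, from 6 to 3 higher in ADMA against SS, and from 11 to 3 higher and 9 to 30 lower in ADMA against C. The regulator and effector lists (172 tested) then gave 46 higher and 42 lower in SS against C, 4 higher in ADMA against SS, and 23 higher and 68 lower in ADMA against C. Centring turned the sign of 9, 5 and 15 of the 49 differences in SS against C, ADMA against SS and ADMA against C. Those of the genes given in full that were called on at least 1 of these scales were RAB10 (-0.10), RAB11A (-0.31), RAB22A (-0.093), RAB25 (-0.062), RAB33B (-0.48), RAB5A (-0.16) and RAB5B (-0.027) in ADMA against C and RAB25 (-0.37) in SS against C, as centring lowers every difference alike. Averaging all probe sets of a gene turned RAB12 to 0.84 in SS against C and 0.56 in ADMA against C, and left 5 RAB genes lower in ADMA against SS. An adjusted p under 0.05 without a fold gave 11 higher in ADMA against SS, 14 lower in ADMA against C and 13 list genes higher in ADMA against SS. Without the intensity trend, 3 RAB genes were lower in ADMA against SS, and the cause was not tested. With 1 array left out at a time, SS against C gave 9 to 11 higher and 9 to 12 lower, ADMA against SS 5 to 9 higher and 5 to 9 lower, and ADMA against C 9 to 11 higher and 5 to 9 lower. Arrays of the same replicate number did not deviate together (r from -0.0741 to 0.1), and 3 of 9 correlated best with their own number. With the replicate block, 11 were higher and 12 lower in SS against C, 6 and 7 in ADMA against SS, and 11 and 9 in ADMA against C. Over the differences of the named RAB genes and all settings, 1563 kept their direction and their side of the threshold, 92 lost and 36 gained a call and 10 turned. Low signal limits RAB37, RAB4B and RAB36, near the filter.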

Other observations

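RAB genes on probe sets shared with other symbols were outside the comparisons, and their values are descriptions without a test. The brightest probe set annotated to RAB6A and RAB6D together with RAB6C had a mean log2 signal of 12.65 ± 0.05 in C (SD, n = 3), 13.13 ± 0.07 in SS (n = 3) and 12.88 ± 0.07 in ADMA (n = 4), with no overlap of SS with either other group. A second one, annotated to RAB6A and RAB6D, read 12.29 ± 0.12, 12.92 ± 0.07 and 12.65 ± 0.05 in the same order, again without overlap. Of the probe sets of RAB4B shared with its read-through transcripts, the 3 annotated with MIA-RAB4B were 1.19 to 1.72 higher in SS than in C, whereas the probe set annotated also to EGLN2 was lower, at -1.17, each without overlap. The probe set shared by RAB43 and its read-through with ISY1 was 1.03 higher in SS, where the probe set of RAB43 alone differed by 0.05. RAB34 was read only together with NARR, at group means of 2.52 to 5.33.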
